A study of Bos indicus with 6 samples.

Results

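Collagens are the trimeric, triple-helical proteins that give the extracellular matrix its structure. The collagen genes of the isthmus, the narrow uterine end of the oviduct, were taken by symbol, as every row of the deposited table whose symbol reads COL, a number, A and a number. This gave 43 of 24616 rows, with 0 symbols found in more than 1 row. They were sorted by the structure that their proteins form into 10 fibrillar collagens, 9 network-forming collagens, 6 beaded-filament collagens, 10 fibril-associated collagens with interrupted triple helices (FACIT), 2 multiplexins and 4 transmembrane collagens. COL7A1, the anchoring-fibril collagen, and COL26A1 belong to none of these classes and are described apart.

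The samples were 6 healthy multiparous Nelore (Bos indicus) cows, with 1 RNA-seq library of the isthmus from each. In all cows estrous cycles were synchronized with a progesterone (P4) device, estradiol benzoate, a prostaglandin F2 alpha analog (PGF) and a GnRH agonist that induced ovulation, and the isthmus was collected on day 4. The 3 cows of the LF/LCL group (large follicle, large corpus luteum) received an additional PGF dose when the device was inserted and had it withdrawn 42 h before GnRH, whereas the 3 cows of the SF/SCL group (small follicle, small corpus luteum) had it withdrawn 30 h before GnRH. They had been picked from the top of the ranked LF/LCL animals and the bottom of the ranked SF/SCL animals, so the groups are extremes of the treatment and not random draws. Tissue from the side of the corpus luteum covered the full thickness of the wall, so that mucosa, muscle and serosa were ground together.

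Fibrillar collagens assemble into the tension-bearing fibrils of connective tissue, and FACIT collagens decorate the surface of those fibrils. Network-forming type IV collagen is the scaffold of basement membranes under epithelium and around smooth muscle cells and vessels, and beaded-filament type VI collagen links cells and basement membranes to the surrounding matrix. In the oviduct wall collagens are made mainly by fibroblasts and, for basement membranes, also by muscle, endothelial and epithelial cells.

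Values are normalized counts, that is, reads per gene divided by a size factor of the library, and they are listed in the order cows 617, 79 and 527 for LF/LCL and cows 856, 489215 and 97 for SF/SCL. The libraries held 23899117 to 34193164 reads counted on genes. No transcript lengths were used, so levels are compared between cows. Shares, sums and ratios that span several genes are of reads and not of RNA molecules. SF/SCL cow 489215 stood apart from every other cow: over the 15387 genes that passed the filters it was the highest of the 6 cows for 36.7% and the lowest for 35.7%. Among the 39 collagen genes that passed them it was the highest for 2 and the lowest for 15, which is 5.13% and 38.5%. The median absolute log2 difference between this cow and the mean of cows 856 and 97 was 0.99 for the collagen genes and 0.83 for all genes, whereas cows 856 and 97 differed from each other by 0.41 and 0.18. Results are therefore also given without cow 489215. This exclusion was chosen from the same values that are then tested, and it leaves only cows 856 and 97 in SF/SCL. Passing the adjusted threshold without cow 489215 is therefore a description as well.

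Collagen genes were lower in the SF/SCL isthmus, together and in nearly every class. Their reads made up 2.08%, 2.58% and 2.50% of the library in LF/LCL cows and 1.17%, 1.20% and 1.13% in SF/SCL cows. The groups did not overlap, and cow 489215 lay beside the other SF/SCL cows. The means were 2.39% ± 0.269 and 1.17% ± 0.0346 (SD, n = 3 each), a 2.04-fold difference. The 95% Wilson interval of a cow's share, which covers counting error only, was at most 0.374% of the share to either side. In bulk tissue fewer collagen-producing cells and less collagen RNA per cell cannot be told apart.

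**Figure D1:**
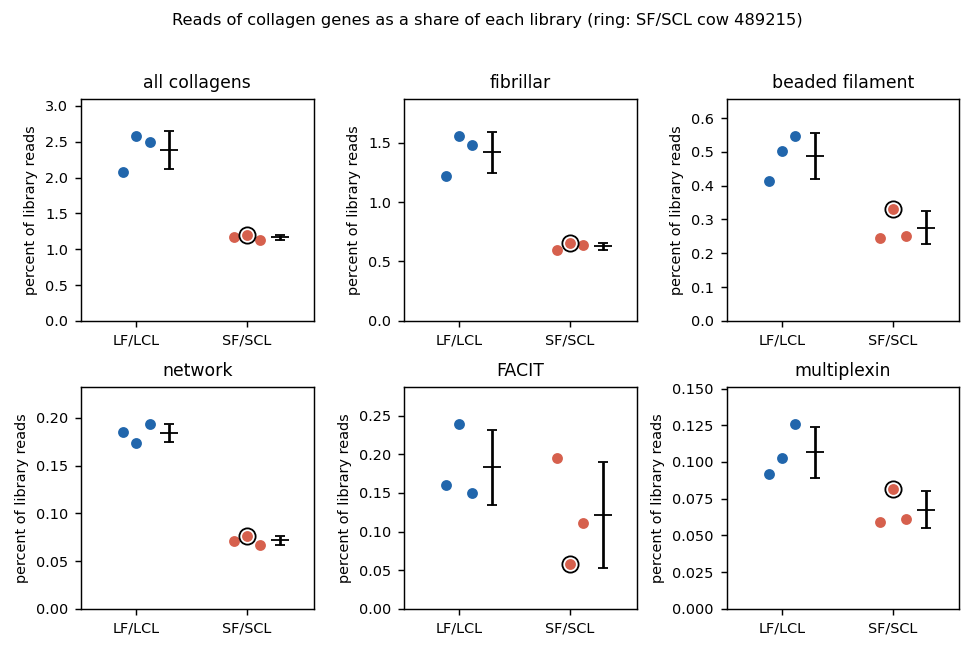
Reads of all collagen genes and of 5 structural classes as percent of the reads of each library, with a point for each cow, the mean and the SD (n = 3) beside each group, and a ring around SF/SCL cow 489215. All collagens, fibrillar, network, beaded-filament and multiplexin shares do not overlap between groups, from 1.13% to 1.20% against 2.08% to 2.58% for all collagens, while the FACIT shares do. In summed normalized counts the beaded-filament and multiplexin classes overlap as well, as cow 489215 lies above LF/LCL cow 617 in both.

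By group mean, 39 of the 43 genes were higher in LF/LCL and 4 in SF/SCL. Each gene was tested with limma on log2(value + 1) among the genes whose mean over the 6 libraries was above 5 and above their SD, which 39 collagen genes met. The genes left out were COL10A1 and COL9A1, which were too low, and COL17A1 and COL19A1, which varied too much. No collagen gene passed an adjusted p-value of 0.05, as 0 of 39 did against 0.0% of the 15387 genes, and the smallest adjusted p-value of a collagen gene was 0.351 (limma with Benjamini-Hochberg adjustment). The statements on single genes below are therefore descriptions of levels unless a test is said to be passed.

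The unadjusted p-value was under 0.05 for 22 of the 39 genes with the higher level in LF/LCL, which is 56.4% against 4.48% of all genes tested, and for 0 genes with the higher level in SF/SCL, against 4.19%. The values of the 2 groups did not overlap, with LF/LCL the higher, for 23 of the 39 genes, which is 59.0% against 8.6% of all genes. The median log2 fold change, given throughout as SF/SCL minus LF/LCL on the log2(value + 1) scale, was -1.09 over the collagen genes and -0.02 over all genes. Low-count genes can enter the tested set through the group in which they are high, although 38 of the 43 genes had a log2 fold change below 0 without any filter, with the same median of -1.09. Neither rescaling of the libraries, by TMM or to equal totals, turned the direction of any fitted collagen gene.

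Without cow 489215, 38 collagen genes were fitted and 19 passed the adjusted threshold with the higher level in LF/LCL, which is 50.0% against 7.92% of all genes. COL14A1 was the sole collagen gene that passed with the higher level in SF/SCL, against 10.3% of all genes. The Wald test of DESeq2 with all 6 cows called 13 of the 35 collagen genes that received an adjusted p-value, which is 37.1% against 1.38% of all genes, each higher in LF/LCL. The edgeR quasi-likelihood test called 0 collagen genes and 0.0% of all genes, with 23 of the 39 collagen genes at an unadjusted p-value under 0.05 and higher in LF/LCL, against 4.34% of all genes.

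**Figure D2:**
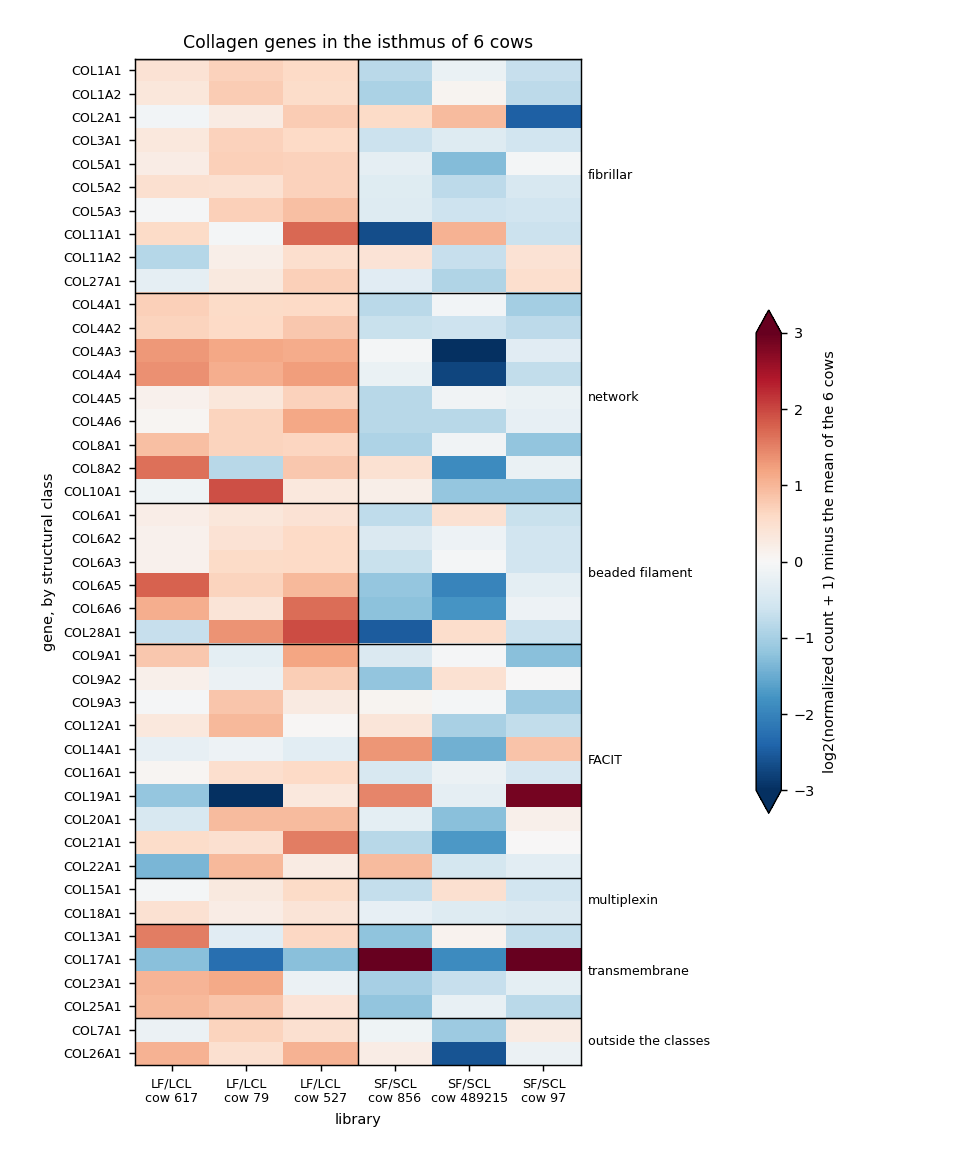
log2(normalized count + 1) of all 43 collagen genes minus the gene's mean over the 6 cows, with a column for each cow and a row for each gene grouped by structural class, red above and blue below the gene's mean. The color scale ends at 3 units. Most rows are red in the 3 LF/LCL columns and blue in the 3 SF/SCL columns, apart from COL14A1, COL17A1 and COL19A1, which are red in cows 856 and 97.

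Fibrillar collagens held the greatest part of the collagen reads, 58.7% to 60.3% in LF/LCL and 50.7% to 56.3% in SF/SCL. As a share of the library they made up 1.22%, 1.55% and 1.48% in LF/LCL and 0.592%, 0.653% and 0.638% in SF/SCL, which is 2.26-fold higher in LF/LCL by the means. Wilson intervals for the class shares of the 5 larger classes reached at most 1.62% of the share to either side. All 10 fibrillar genes were fitted, 9 were higher in LF/LCL by log2 fold change, and 6 had an unadjusted p-value under 0.05 and values that did not overlap. Their median log2 fold change was -1.08, and -1.07 without cow 489215.

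COL1A1 (ENSBTAG00000013103), the major chain of type I collagen and of the body's thick fibrils, had normalized counts of 84623, 101199 and 95542 in LF/LCL and 35976, 54405 and 38784 in SF/SCL. Its partner chain COL1A2 (ENSBTAG00000013472) had 92733, 124199 and 108237 against 38104, 77601 and 42492. COL3A1 (ENSBTAG00000021466), which forms the finer type III fibrils of distensible organs, had 132576, 172229 and 160640 against 68204, 81486 and 72090. For all 3 genes every LF/LCL cow lay above every SF/SCL cow, and cow 489215 was the highest of its group. The log2 fold changes were -1.14 for COL1A1 (standard error 0.25, unadjusted p = 0.00309, adjusted p = 0.367), -1.10 for COL1A2 (standard error 0.33, unadjusted p = 0.0147, adjusted p = 0.437) and -1.06 for COL3A1 (standard error 0.24, unadjusted p = 0.00344, adjusted p = 0.372), by limma after Benjamini-Hochberg adjustment. Without cow 489215 they were -1.32, -1.42 and -1.14, and all 3 passed the adjusted threshold. Together these genes held 55.6% to 57.3% of a cow's collagen reads in LF/LCL and 46.9% to 52.3% in SF/SCL.

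The type V chains, which start type I fibrils and limit their width, differed by a similar amount. COL5A2 had 9815, 9600 and 11302 in LF/LCL and 5398, 4021 and 5009 in SF/SCL, with a log2 fold change of -1.10 (standard error 0.19, unadjusted p = 0.000801, adjusted p = 0.351 by limma after Benjamini-Hochberg adjustment). COL5A1 had 5450, 7569 and 7548 against 3824, 1887 and 4432, a log2 fold change of -1.09. COL5A3 had 917, 1527 and 1746 against 714, 604 and 625, a log2 fold change of -1.06. Here cow 489215 was the lowest of the 6 cows for each chain, in contrast to type I and type III collagen, and without it the log2 fold changes were -0.97, -0.72 and -1.01, each past the adjusted threshold.

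The other fibrillar genes did not part the groups. COL27A1, a fibrillar collagen known from cartilage, had 788, 1180 and 1564 in LF/LCL and 760, 511 and 1366 in SF/SCL (log2 fold change -0.48). COL2A1, the cartilage fibril chain, ranged from 278 to 502 in LF/LCL and from 53.1 to 570 in SF/SCL, and COL11A1, its minor partner, from 28.2 to 99.3 and from 3.80 to 61.2. COL11A2 had 133, 272 and 345 against 322, 149 and 328, and with a log2 fold change of 0.11 it was the fibrillar gene with the higher mean in SF/SCL. Leaving out cow 489215 moved COL2A1 from -0.62 to -1.24 and COL11A1 from -1.50 to -2.40, and none of these 4 genes passed the adjusted threshold with or without it.

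Network-forming collagens showed the largest class difference in reads. They made up 0.185%, 0.174% and 0.194% of the library in LF/LCL and 0.0715%, 0.0763% and 0.0671% in SF/SCL, 2.57-fold higher in LF/LCL, and 6.76% to 8.91% against 5.92% to 6.34% of the collagen reads. All 8 fitted genes were higher in LF/LCL, and 7 had an unadjusted p-value under 0.05 and values without overlap. The median log2 fold change was -1.32, and -1.40 without cow 489215, when 6 of the 8 passed the adjusted threshold.

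COL4A1 and COL4A2 form the type IV heterotrimer found in practically all basement membranes. COL4A2 (ENSBTAG00000025210) had 17306, 16476 and 18907 in LF/LCL and 6832, 7111 and 6297 in SF/SCL, and its log2 fold change of -1.38 (standard error 0.17, unadjusted p = 0.000109, adjusted p = 0.351 by limma after Benjamini-Hochberg adjustment) had the smallest p-value of all collagen genes. In that gene cow 489215 lay beside the other SF/SCL cows. COL4A1 (ENSBTAG00000012849) had 28002, 25460 and 25634 against 9745, 16044 and 8366, a log2 fold change of -1.27 (standard error 0.28), and here cow 489215 lay between the groups. Without that cow the values were -1.42 for COL4A2 and -1.54 for COL4A1, and both passed the adjusted threshold.

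The minor type IV chains differed too. COL4A3, which with COL4A4 and COL4A5 builds the type IV network of glomerular basement membrane, had 170, 154 and 149 in LF/LCL and 66.1, 6.66 and 54.2 in SF/SCL, and COL4A4 had 316, 261 and 292 against 106, 17.3 and 72.6. Both were lowest in cow 489215 by far. Their log2 fold changes of -2.38 and -2.46 shrank to -1.38 and -1.70 without that cow and then passed the adjusted threshold. COL4A5 had 2109, 2452 and 3164 against 1087, 1793 and 1692 (log2 fold change -0.77). COL4A6, the partner of COL4A5 in smooth muscle basement membrane, had 825, 1267 and 1769 against 445, 446 and 670 (log2 fold change -1.26). For both the lowest LF/LCL cow, cow 617, was near the highest SF/SCL cow. Without cow 489215 COL4A5 passed the adjusted threshold and COL4A6 had an adjusted p-value of 0.0564 (limma with Benjamini-Hochberg adjustment). The DESeq2 Wald test with all 6 cows ordered them otherwise, with adjusted p-values of 0.221 for COL4A5 and 0.0301 for COL4A6.

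COL8A1, a short-chain collagen of vessel walls and of the corneal endothelial membrane, had 922, 781 and 763 in LF/LCL and 257, 451 and 216 in SF/SCL, a log2 fold change of -1.48 (standard error 0.32). Its partner COL8A2 ranged from 9.39 to 57.6 in LF/LCL and from 3.99 to 24.3 in SF/SCL, with a log2 fold change of -1.09, or -0.42 if cow 489215 is left out. COL10A1, the collagen of hypertrophic cartilage, was at 1.05, 7.51 and 1.76 against 1.52, 0 and 0. Apart from cow 79, with 8 reads, every cow was within the limit of 3 reads that a count of 0 allows in a library.

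**Figure D3:**
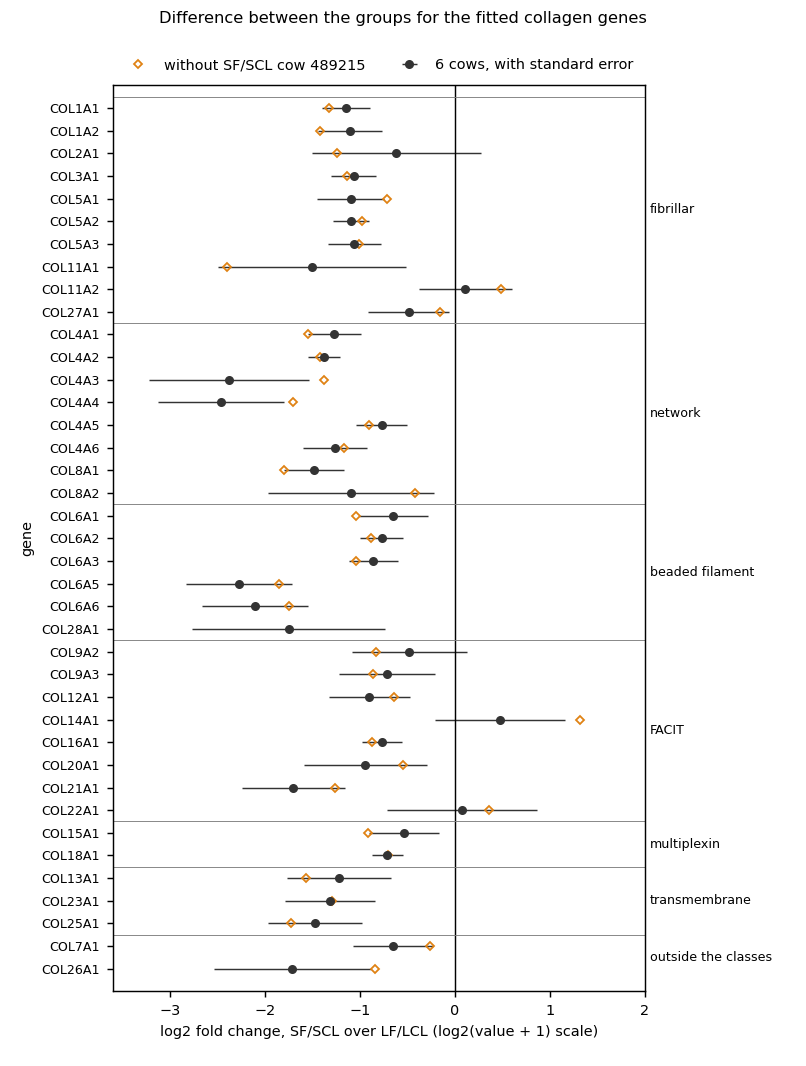
log2 fold change of the 39 fitted collagen genes (SF/SCL over LF/LCL, log2(value + 1) scale) with its standard error as filled points, and the value without SF/SCL cow 489215 as open diamonds, grouped by structural class. COL28A1 has no diamond because it did not pass the filters without that cow. All but COL11A2, COL14A1 and COL22A1 lie below 0, from -2.46 for COL4A4 to -0.48.

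Beaded-filament collagens made up 0.414%, 0.503% and 0.547% of the library in LF/LCL and 0.245%, 0.332% and 0.251% in SF/SCL, 1.77-fold higher in LF/LCL. In summed normalized counts the groups overlapped, as cow 489215 had 112547 and LF/LCL cow 617 had 111260. All 6 genes were higher in LF/LCL by log2 fold change, with a median of -1.30, or -1.04 without cow 489215. An unadjusted p-value under 0.05 and values without overlap were found for 4 of them. Their share of the collagen reads was 20.4% ± 1.25 in LF/LCL and 23.6% ± 3.53 in SF/SCL (SD, n = 3 each), so the share of this class among the collagens was not lower in SF/SCL.

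COL6A1, COL6A2 and COL6A3 form the common type VI trimer. COL6A1 had 50525, 55941 and 59651 in LF/LCL and 26058, 60653 and 27758 in SF/SCL. The SF/SCL value of cow 489215 was the highest of all, so that the groups overlapped and the log2 fold change was -0.65 (unadjusted p = 0.122 from limma across all genes), against -1.04 without that cow. COL6A2 had 24341, 30398 and 33615 against 16604, 20137 and 15038 (log2 fold change -0.77), and COL6A3 had 36072, 48855 and 49596 against 20877, 31712 and 22213 (log2 fold change -0.86). Both parted the groups, and all 3 chains passed the adjusted threshold without cow 489215.

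COL6A5 and COL6A6, chains that can take the place of COL6A3 in type VI trimers, were low in all cows and differed more. COL6A5 had 155, 72.3 and 89.6 in LF/LCL and 19.7, 10.7 and 36.8 in SF/SCL, with group means 4.71-fold apart and a log2 fold change of -2.27 (standard error 0.56). COL6A6 had 161, 97.6 and 242 against 31.1, 21.3 and 67.2, with means 4.19-fold apart and a log2 fold change of -2.11 (standard error 0.55). Without cow 489215 COL6A5 passed the adjusted threshold and COL6A6 had an adjusted p-value of 0.0535 (limma with Benjamini-Hochberg adjustment). The DESeq2 Wald test with all 6 cows gave adjusted p-values of 0.00873 for COL6A5 and 0.0195 for COL6A6. COL28A1 was scattered, from 5.23 to 37.8 in LF/LCL and from 0.760 to 13.3 in SF/SCL.

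In FACIT collagens the groups overlapped. Their shares of the library were 0.160%, 0.239% and 0.150% in LF/LCL and 0.195%, 0.0582% and 0.111% in SF/SCL. Of the 8 fitted genes 6 were higher in LF/LCL by log2 fold change, 2 had an unadjusted p-value under 0.05, and the median was -0.74. COL16A1, which binds fibrillin microfibrils and fibrils, had 4954, 6727 and 7200 against 3431, 4208 and 3343 (log2 fold change -0.77, standard error 0.21) and passed the adjusted threshold without cow 489215. COL21A1, a short FACIT collagen of vessel walls, had 158, 150 and 316 against 60.8, 32.0 and 108 (log2 fold change -1.70, standard error 0.54). These genes alone in the class parted the groups.

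COL12A1 and COL14A1 encode the related fibril-surface collagens XII and XIV, and their values did not move together. COL12A1 had 33583, 52774 and 27616 in LF/LCL and 34505, 13575 and 16032 in SF/SCL. SF/SCL cow 856 lay above LF/LCL cows 617 and 527, and the log2 fold change was -0.90 (unadjusted p = 0.0762 from limma across all genes). COL14A1 had 4270, 4578 and 4070 against 12620, 1872 and 9118. The LF/LCL cows were within a narrow range, cows 856 and 97 lay above it and cow 489215 below. The log2 fold change of COL14A1 was 0.48 (unadjusted p = 0.508 from limma across all genes) with all cows and 1.32 (adjusted p = 0.0039 by limma after Benjamini-Hochberg adjustment) without cow 489215.

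Among the low FACIT genes, COL9A2 and COL9A3, chains of cartilage collagen IX, and COL20A1 were higher in LF/LCL by log2 fold changes of -0.48, -0.71 and -0.94, with overlap in each. COL22A1 had group means of 5.23 and 5.01 and a log2 fold change of 0.08, whose sign differed with log2(value + 10), edgeR and DESeq2. COL9A1 ranged from 0.939 to 4.39 in LF/LCL and from 0 to 1.33 in SF/SCL.

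The multiplexins COL15A1 and COL18A1 are basement-membrane proteoglycan collagens, and COL18A1 is the precursor of endostatin. Their shares of the library were 0.0918%, 0.102% and 0.126% in LF/LCL and 0.0594%, 0.0819% and 0.0611% in SF/SCL. Their summed normalized counts overlapped between groups, with 27766 in cow 489215 and 24649 in LF/LCL cow 617. COL18A1 had 9088, 7829 and 8710 against 5624, 5110 and 4908, a log2 fold change of -0.71 (standard error 0.16) with the groups well apart. COL15A1 had 15561, 19734 and 24249 against 9797, 22656 and 10929, and the value of cow 489215 lay among the LF/LCL values. The log2 fold change of COL15A1 was -0.54, and -0.92 without that cow, when both genes passed the adjusted threshold.

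Transmembrane collagens, which sit in the plasma membrane with their collagen domains outside, were scarce, at 0.00202% to 0.00579% of the library in LF/LCL and 0.00168% to 0.00397% in SF/SCL. COL23A1 had 132, 144 and 57.1 in LF/LCL and 31.9, 39.9 and 53.1 in SF/SCL (log2 fold change -1.31), and COL25A1 had 13.6, 12.2 and 8.78 against 2.28, 5.33 and 3.25 (log2 fold change -1.47). Neither gene's groups overlapped, although cow 527 and cow 97 were close for COL23A1. COL13A1 ranged from 374 to 1383 in LF/LCL and from 206 to 507 in SF/SCL. The 3 genes had unadjusted p-values of 0.029, 0.0225 and 0.0659 in that order from limma across all genes, and none passed the adjusted threshold without cow 489215. Outside the classes, COL7A1, which anchors epithelial basement membrane to the stroma, overlapped between groups (383 to 691 against 202 to 513), and COL26A1 had 11.5, 7.51 and 11.4 against 6.08, 0 and 4.33.

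COL17A1, the hemidesmosome collagen of basal epithelial cells, and COL19A1, a FACIT collagen of basement membrane zones, were, like COL14A1, higher in cows 856 and 97 than in every LF/LCL cow. COL17A1 had 27.2, 13.1 and 27.2 in LF/LCL and 791, 17.3 and 567 in SF/SCL. COL19A1 had 3.14, 0 and 10.5 against 24.3, 6.66 and 66.1. In both genes cow 489215 lay within the LF/LCL range, and neither gene was tested because its SD over the 6 cows exceeded its mean. OVGP1, the secretory glycoprotein of oviduct epithelium, had the same arrangement, with 287, 1782 and 1950 against 271794, 730 and 325158. The other epithelial markers were divided. PAX8 was high in cows 856 and 97 but not in cow 489215. EPCAM, KRT8 and KRT18 were higher in every SF/SCL cow than in every LF/LCL cow. For EPCAM cow 489215 was the highest of all, at 20313. Whether these collagens follow the epithelium was not tested.

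**Figure D4:**
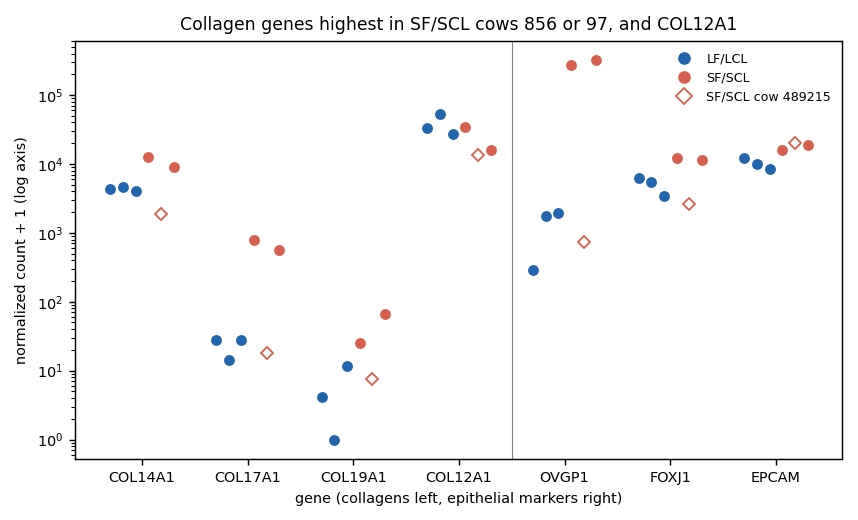
Normalized count + 1 on a log axis of COL14A1, COL17A1, COL19A1 and COL12A1 and of the epithelial genes OVGP1, FOXJ1 and EPCAM, with a point for each cow in the order given in the text and a diamond for SF/SCL cow 489215. COL14A1, COL17A1, COL19A1, OVGP1 and FOXJ1 are higher in cows 856 and 97 than in every LF/LCL cow, whereas cow 489215 is not. EPCAM is higher than in every LF/LCL cow in all SF/SCL cows, and highest in cow 489215.

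Partner chains of a collagen can be assembled into the same trimer, so ratios of chains were compared within each library, where the library's scaling cancels. The pairs COL3A1 with COL1A1 and COL15A1 with COL18A1 are of different collagens, so no fixed proportion applies to them. COL4A5 also joins COL4A3 and COL4A4, and COL6A5 or COL6A6 can replace COL6A3. The proportions of COL4A5 to COL4A6 and of COL6A3 to COL6A1 are therefore not fixed either. For the other pairs no fixed proportion was assumed. With all 6 cows the groups parted in none of 11 pairs, and exact two-sided permutation tests over the 10 divisions of the cows, which cannot give a p-value under 0.1, gave 0.3 to 1.0, all 1.0 after Benjamini-Hochberg adjustment. COL1A1 over COL1A2 was 0.815 to 0.913 in LF/LCL and 0.701 to 0.944 in SF/SCL. COL4A1 over COL4A2 was 1.36 to 1.62 against 1.33 to 2.26. COL6A1 over COL6A2 was 1.77 to 2.08 against 1.57 to 3.01. In each of these pairs the value farthest from the rest was that of cow 489215, 0.701, 2.26 and 3.01. Over all 11 pairs this cow was the highest or the lowest of the 6. The smallest p-value was that of COL4A5 over COL4A6, 1.79 to 2.56 against 2.44 to 4.01, a log2 difference of 0.49 (exact permutation test, p = 0.3) and of 0.26 without cow 489215. Without that cow, which was left out after its values had been seen, the groups parted in 4 of the 11 pairs. COL3A1 over COL1A1 was then 1.57 to 1.70 in LF/LCL and 1.86 to 1.90 in SF/SCL, and COL4A3 over COL4A4 was 0.514 to 0.591 against 0.625 to 0.750, both with the smallest exact permutation p-value possible, 0.1. COL8A1 over COL8A2 and, narrowly, COL1A1 over COL1A2 parted too (exact permutation test, p = 0.2 each), and after Benjamini-Hochberg adjustment over the 11 pairs the smallest p-value was 0.55. Complete parting is easier to reach with fewer cows, and no share over other gene pairs was computed. The count of 4 pairs is therefore a description.

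**Figure D5:**
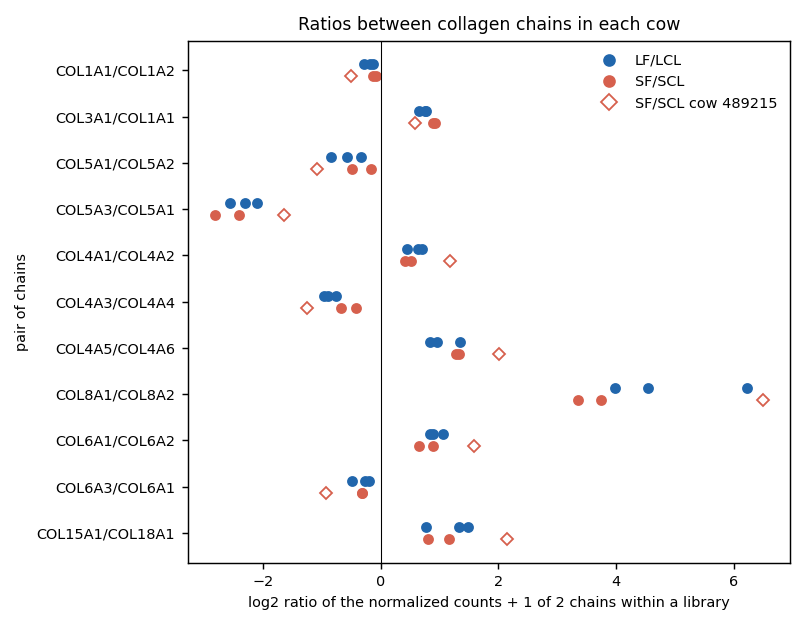
log2 ratio of the normalized counts (+ 1) of 11 pairs of collagen chains within each library, LF/LCL cows in blue, SF/SCL cows in red and SF/SCL cow 489215 as an open diamond. The groups overlap in every pair, and cow 489215 is the highest or the lowest of the 6 cows in all 11.

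In the RefSeq annotation of the Bos indicus assembly NIAB-ARS_B.indTharparkar, which matched 41 of the 43 symbols and differs from the assembly used for counting, 6 pairs of collagen genes are direct neighbors. The pairs COL4A1 with COL4A2, COL4A3 with COL4A4, COL6A1 with COL6A2, and COL3A1 with COL5A2 had log2 fold changes within 0.11, 0.09, 0.12 and 0.03 of each other. COL4A5 and COL4A6 differed by 0.49. COL9A1 and COL19A1 differed by 3.83 in the fit without a filter, with opposite signs. Neighbors therefore ranged from nearly equal to opposite, and how neighbors compare with other pairs was not tested.

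Collagen chains are hydroxylated, glycosylated and folded in the endoplasmic reticulum, trimmed of their propeptides outside the cell, cross-linked and bound by cell-surface receptors. Of 34 genes for these steps, all fitted, 26 were higher in LF/LCL by log2 fold change, which is 76.5% against 51.4% of all genes, with a median of -0.41. The unadjusted p-value was under 0.05 for 8 with the higher level in LF/LCL (23.5% against 4.48% of all genes) and for 1 with the higher level in SF/SCL (2.94% against 4.19%), and 0 passed the adjusted threshold. Without cow 489215, 16 passed it with the higher level in LF/LCL, 47.1% against 7.92% of all genes, and 3 with the higher level in SF/SCL, 8.82% against 10.3%, which is near the share of all genes.

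Among the 15 genes of folding and hydroxylation, 3 had an unadjusted p-value under 0.05. They were the lysyl hydroxylase PLOD1 (log2 fold change -0.96), the prolyl 3-hydroxylase LEPRE1 (-0.55) and the chaperone FKBP10 (-1.05). SERPINH1, the collagen-specific chaperone, had 20243, 23009 and 18599 in LF/LCL and 12065, 21407 and 13605 in SF/SCL, with overlap because of cow 489215. Of 7 genes of propeptide removal, the procollagen N-proteinase ADAMTS2 (-1.18) and the enhancer PCOLCE (-0.98) were in that set, and of 5 cross-linking genes the lysyl oxidase LOX (-1.10), with 775, 964 and 939 against 429, 309 and 540. Among 7 receptors these were the collagen-binding integrins ITGA1 (-1.32) and ITGA11 (-1.88) in one direction and the receptor tyrosine kinase DDR1 (1.29) in the other. DDR1, which is known from epithelial cells, had 5582, 5240 and 5055 against 19314, 6284 and 17998, so that the difference again lay mostly in cows 856 and 97.

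Markers of the cell types in the wall moved with these results, and their part in them was not tested. All 7 fibroblast markers other than collagens were lower in SF/SCL by log2 fold change, 4 of them with an unadjusted p-value under 0.05, and their summed normalized counts were 100072 to 128773 in LF/LCL and 61655, 91700 and 60987 in SF/SCL. The 7 smooth muscle markers were also lower by log2 fold change, 0 of them with such a p-value with all 6 cows, with sums of 705137 to 825682 against 320565, 1217824 and 386979. All 4 fitted epithelial markers were higher in SF/SCL, 3 with an unadjusted p-value under 0.05, and so were all 5 ciliated-cell markers, 2 with such a p-value and with sums of 11631 to 15462 against 28867, 9499 and 29792. Over all genes, 4.48% had such a p-value with the higher level in LF/LCL and 4.19% with the higher level in SF/SCL. Of the epithelial list, CDH1 was not found under that symbol, and OVGP1 did not pass the filters. Without cow 489215, 6 of the 7 fibroblast and 6 of the 7 smooth muscle markers passed the adjusted threshold with the higher level in LF/LCL. In the same fit 3 epithelial and 4 ciliated-cell markers passed it with the higher level in SF/SCL. The shares of all genes that passed were 7.92% with the higher level in LF/LCL and 10.3% with the higher level in SF/SCL. Cow 489215 had the highest smooth muscle sum and the lowest ciliated-cell sum of the 6 cows.

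The remaining lists moved less or were carried by few genes. Of 5 endothelial markers found, 4 were higher in LF/LCL by log2 fold change and 1, CDH5 (-0.87), had an unadjusted p-value under 0.05. Among 4 leukocyte markers 0 had such a p-value, and the erythrocyte genes summed to at most 6.66 in any cow. The 4 mesothelial markers did not pass the filters and did not move together. MSLN had 808, 873 and 1871 against 17590, 2299 and 18098, and WT1 was likewise high in cows 856 and 97, while LRRN4 had 283, 412 and 175 against 3.80, 5.33 and 16.3 and UPK3B overlapped between groups. Among the Schwann cell markers, S100B, which other cell types also express, had a log2 fold change of 2.39 and an unadjusted p-value under 0.05.

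Set against the fibroblast markers of the same library, the collagens differed less. All collagen genes together were 5.09 to 5.65 times the fibroblast sum in LF/LCL and 4.45 to 4.92 times in SF/SCL, and the means differed 1.15-fold, where the summed normalized counts of the collagens alone differed 1.90-fold. Fibrillar collagens were 3.01 to 3.41 times that sum against 2.41 to 2.71 times (1.27-fold), and network-forming collagens 0.382 to 0.497 times against 0.282 to 0.301 times (1.47-fold). In each of these ratios every LF/LCL cow lay above every SF/SCL cow, cow 489215 included. Against DCN alone, the fibroblast proteoglycan that coats collagen fibrils, COL1A1 was 1.44 ± 0.147 times its level in LF/LCL and 1.03 ± 0.0986 times in SF/SCL (SD, n = 3 each), and COL4A2 was 0.245 to 0.316 times against 0.121 to 0.196 times, without overlap in either ratio. Against the smooth muscle sum the ratios of all collagens overlapped, at 0.676 to 0.929 in LF/LCL and 0.335 to 0.947 in SF/SCL. These ratios were chosen after the values had been seen and carry no test.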

How the data were processed

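Polyadenylated RNA of the isthmus of 6 cows was sequenced as paired ends. The authors cleaned the reads with seqyClean, mapped these on the masked bovine assembly UMD 3.1 with TopHat2 2.0.8 and Bowtie2 2.1.0, and counted uniquely mapped reads per gene with HTSeq 0.5.4p2. Whether counting used the strand is not given in the sources used here, so reads of overlapping or antisense genes cannot be told apart. The deposited signal values are read counts that the authors divided by DESeq 1.12.1 size factors, which ran from 0.751 to 1.32. CASAVA 1.8.2 and SAMtools 0.1.18 are named in the submitters' processing notes. All 147696 values were whole multiples of a library's step within 0.0015, so reads were recovered. Depth was 23899117 to 34193164 reads.

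Groups were compared with limma 3.58.1 in R 4.3.3 (trend and robust) on log2(value + 1), SF/SCL minus LF/LCL, without covariates, over the 15387 genes whose mean exceeded both 5 and the SD of the libraries, with Benjamini-Hochberg adjustment over all of them at 0.05. The fit was tested on simulated counts with the same dispersion for every gene and cow. In the data the median SD of log2 values over all genes was 0.17 in LF/LCL and 0.53 in SF/SCL. The simulation therefore does not show how the fit behaves with a cow like 489215. With 3 cows a group, the p-values set the group difference against the spread between these animals, moderated over all genes tested. As the cows were picked extremes, these p-values do not carry over to the treatment groups as a whole. Chain ratios were compared by exact permutation. Collagen classes, pathway genes and markers were listed by symbol, and the members and lists were chosen with earlier results of these data known. The Schwann cell list is not reported here in full. Values per cow are given for collagen genes with a mean of at least 1000, those with an unadjusted p-value under 0.05 without overlap, and those higher in SF/SCL, and for others where a contrast needed them, chosen after their values were seen. Pathway genes are named where the unadjusted p-value was under 0.05, apart from SERPINH1. Alternatives were pseudocounts of 0.5 and 10, other filters, TMM rescaling, equal library totals, edgeR 4.0.16 and DESeq2 1.42.0 on the recovered reads, and each cow left out. Python 3.11.15 with pandas 2.3.3, numpy 2.4.6, scipy 1.17.1 and matplotlib 3.10.9 did the rest.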

Additional observations from a re-analysis of the deposited data

How the results depend on the processing

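The count of collagen genes past the adjusted threshold was 0 with limma under each pseudocount, filter and rescaling and with edgeR, 13 with DESeq2, and 0 to 20 when a cow was left out, with 20 reached without SF/SCL cow 489215 and 0 without any other. The causes of these shifts were not tested. The count at an unadjusted p-value under 0.05 stayed between 22 and 24 under the other settings and between 16 and 27 with a cow left out. The median log2 fold change was -0.90 with log2(value + 10), which damps low genes by construction, and -1.13 to -1.0 with a cow left out. Equal library totals moved the median of all genes from -0.02 to -0.11 and that of the collagens to -1.16. The pathway count of 9 became 5 with each LF/LCL cow left out, 6 without cow 856 or 97 and 23 without cow 489215. COL22A1 turned to -0.0093 with log2(value + 10), -0.014 with edgeR and -0.032 with DESeq2. With a cow left out, the log2 fold change ran from -0.58 to 0.36 for COL22A1, -0.29 to 0.48 for COL11A2, -0.058 to 1.32 for COL14A1 and -1.24 to 0.46 for COL2A1. Log2 ratio differences turned sign in the ranges -0.12 to 0.10 for COL1A1/COL1A2, -0.20 to 0.25 for COL5A1/COL5A2, -0.29 to 0.30 for COL5A3/COL5A1, -0.13 to 0.26 for COL4A1/COL4A2, -0.10 to 0.32 for COL4A3/COL4A4, -1.38 to 0.27 for COL8A1/COL8A2, -0.15 to 0.32 for COL6A1/COL6A2 and -0.22 to 0.46 for COL15A1/COL18A1. Where a cow was left out, the group of 2 that remained shared its estimate of spread with the other group. No paired analysis was possible because each cow gave 1 isthmus library and the groups share no replicate numbers. Depth limits the 8 collagen genes with a mean under 15.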
